A study of Mus musculus with 4 samples.

Results

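Interferon-responding T cells were picked out of the brain and the spleen of mice with experimental autoimmune encephalomyelitis (EAE), an induced autoimmune disease of the central nervous system that serves as a model of multiple sclerosis. A cell was called interferon-high when its RNA held at least 5 of 8 interferon-induced transcripts (Ifit1, Ifit3, Ifit3b, Rsad2, Isg15, Mx1, Oasl2 and Cmpk2) and interferon-low when it held at most 1; these are also called high and low cells below. By this rule 270 of 3954 brain cells and 171 of 7966 spleen cells were interferon-high, 441 of the 11920 cells kept. Interferon-low cells numbered 3022 in brain and 7086 in spleen, and the other 662 brain and 709 spleen cells held 2 to 4 of the transcripts.

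All mice were wild-type (WT) C57BL/6 animals at day 60 after immunization, and both tissues were sorted for CD4+ CD44+ GITR- cells, that is, antigen-experienced helper T cells without GITR, a surface protein of regulatory T cells. From the brain 18718 cells and from the spleen 38000 cells were loaded on a 5′ droplet single-cell assay, which gave 1 RNA library and 1 T cell receptor library per tissue. Every group thus carries EAE, and no unimmunized group was analysed here. The number of mice and whether they were pooled are not given in the sources used here, so tissue and library cannot be told apart and no p-value can be given. Intervals in the text are 95% intervals that cover counting error only.

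Type I interferons are cytokines made chiefly by cells that sense viral or misplaced nucleic acid. They bind a receptor that nearly all cells carry, and through the kinases JAK1 and TYK2 they activate a complex of transcription factors, STAT2 and IRF9 among them, that switches on genes with an interferon-stimulated response element in their promoters. Interferon gamma, made by T cells and natural killer cells, acts through a separate receptor, and its targets overlap with those of type I interferon.

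The 2 RNA libraries held 4277 brain and 8707 spleen barcodes, of which 31 occurred in both, and none of the interferon-high cells had such a shared barcode. Interferon-high cells carried T cell genes, which does not show the CD44 and GITR parts of the sort. All of 5 defining T cell genes were present in them. The genes summed to 2776 CPM (UMIs of a gene scaled to an equal total per class) in brain and 3035 CPM in spleen. At least 2 of the 5 were detected in 99.6% of the brain and 100% of the spleen interferon-high cells. Interferon-high cells were deeper than interferon-low cells, with a median of 11197.5 unique molecular identifiers (UMIs) per cell in high against 9451 in low cells of brain and 8940 in high against 7036.5 in low cells of spleen. A deeper cell can show more of the 8 transcripts, so shares of cells with a transcript of one gene are, where compared between classes, also given with every cell thinned to one number of UMIs.

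The interferon-high class was 6.83% of the brain cells (interval 6.06% to 7.66%) and 2.15% of the spleen cells (1.84% to 2.49%). After every cell was thinned to 2000 UMIs, with 86 brain and 261 spleen cells too shallow and left out, 1.76% of brain cells (1.37% to 2.22%) and 0.545% of spleen cells (0.393% to 0.736%) still held 5 of the 8 transcripts. At 5000 UMIs the shares were 4.20% (3.56% to 4.92%) in brain and 1.57% (1.28% to 1.90%) in spleen. The brain share was above the spleen share at each depth, with intervals that did not overlap.

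The numbers of cells tailed off without a gap between the classes. Brain cells with 4, 5, 6, 7 and 8 of the transcripts numbered 105, 86, 70, 64 and 50. Spleen cells with 4, 5, 6, 7 and 8 numbered 100, 58, 58, 34 and 21. The class is therefore a range with its limit set at 5. Cells with 5 transcripts had a median of 11111 UMIs and cells with 4 had 10874 in brain, and in spleen the medians were 9069.5 UMIs at 5 and 8627.5 at 4.

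**Figure D1:**
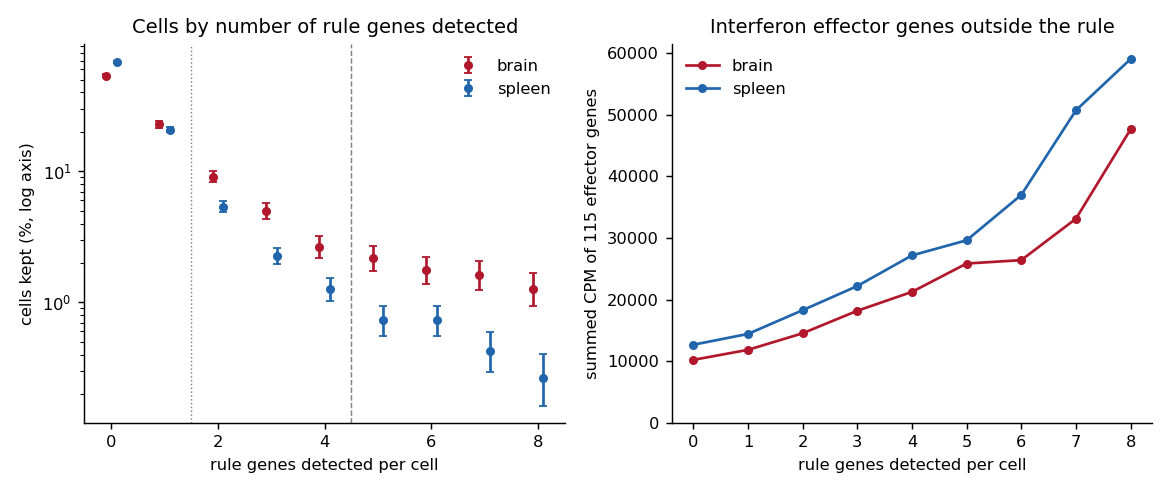
Left, share of the kept cells (%, log axis) by the number of the 8 rule transcripts detected, with exact 95% binomial intervals, in brain (red) and spleen (blue); the dashed line marks the limit of interferon-high cells and the dotted line that of interferon-low cells. Right, the summed level (CPM) of 115 interferon effector genes outside the rule in the same cells, which was 25855 CPM in brain and 29628 CPM in spleen at 5 transcripts, and 10213 CPM in brain and 12675 CPM in spleen at 0.

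The 8 rule genes chose the cells, so their levels are given as a description only. Isg15, a small protein conjugated to others like ubiquitin, had the most UMIs of the 8, at 1006 CPM in brain interferon-high against 22.6 CPM in brain interferon-low cells, and at 1417 CPM in high against 27.6 CPM in low spleen cells. Ifit1 and Ifit3, which bind viral RNA ends and each other, had 382 and 519 CPM in high against 5.56 and 2.72 CPM in low brain cells. In spleen, Ifit1 was at 515 CPM in high against 4.57 CPM in low cells and Ifit3 at 469 CPM in high against 2.24 CPM in low cells. Ifit3b, a near-identical copy of Ifit3 with which reads may be shared, was at 161 CPM in high against 0.603 CPM in low brain cells and 126 CPM in high against 0.463 CPM in low spleen cells.

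The remaining rule genes had like levels in both tissues. Rsad2 (viperin), which makes a chain-ending nucleotide, had 173 CPM in brain and 174 CPM in spleen interferon-high cells, and its partner Cmpk2, a mitochondrial nucleotide kinase beside it on the chromosome, had 175 CPM in brain and 195 CPM in spleen high cells. The antiviral GTPase Mx1 had 234 CPM in brain and 216 CPM in spleen interferon-high cells, and the OAS-like gene Oasl2 had 172 CPM in brain and 176 CPM in spleen high cells. In the interferon-low cells these 4 genes lay at 4.92 CPM or less in both tissues. Isg15 was found in 98.5% of brain interferon-high cells, while Rsad2 was found in 64.8% of them, so the members differ in which transcripts they show.

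Promoters are shown because the response element named above can be read in them; a match is a description and not a proven site. Printed are 70-base stretches upstream of the annotated start, each on the gene's own strand and 5′ to 3′, from RefSeq (GRCm38.p6), with capitals on each match to GAAA, any 2 bases and GAAA again (TTTC, any 2 bases and TTTC on the other strand), the core of the interferon-stimulated response element; the last 2 belong to genes outside the rule that are described below.
Ifit1, chr19:34640773-34640842, plus strand: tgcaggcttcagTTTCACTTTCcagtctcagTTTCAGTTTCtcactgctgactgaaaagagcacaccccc
Ifit3, chr19:34583361-34583430, plus strand: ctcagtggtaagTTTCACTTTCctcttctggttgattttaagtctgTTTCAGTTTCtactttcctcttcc
Rsad2, chr12:26456515-26456584, minus strand: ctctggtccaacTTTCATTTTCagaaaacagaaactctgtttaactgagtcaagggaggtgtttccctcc
Isg15, chr4:156200839-156200908, minus strand: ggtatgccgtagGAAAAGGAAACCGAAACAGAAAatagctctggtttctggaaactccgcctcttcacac
Cxcl10, chr5:92349045-92349114, minus strand: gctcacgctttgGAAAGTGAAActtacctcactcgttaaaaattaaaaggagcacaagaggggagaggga
Bst2, chr8:71537545-71537614, minus strand: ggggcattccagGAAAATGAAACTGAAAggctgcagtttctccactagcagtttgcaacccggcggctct

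The matches begin 104 bases before the start in Ifit1, 156 in Ifit3, 120 in Rsad2, 78 in Isg15, 213 in Cxcl10 and 130 in Bst2. The Isg15 stretch holds 3 overlapping matches and the Bst2 stretch 2 overlapping ones, which is why their capitals run together. The same stretch upstream of Ifit3b equals that of Ifit3 at all 70 of 70 bases. No match was found in the windows of the rule genes Oasl2 and Cmpk2, nor in those of Irf7 and Gzmb outside the rule, and Mx1 was not matched to an entry.

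Outside the rule, the interferon-high cells carried a broad antiviral programme that was nearly the same in both tissues. Genes were called when their summed CPM differed at least 2-fold between classes, with a floor of 20 CPM for whichever class was higher. In brain 162 of 6588 measured genes (2.46%) were at least 2-fold higher and 35 (0.531%) at least 2-fold lower in interferon-high cells; in spleen 196 of 6759 (2.90%) were higher and 43 (0.636%) lower. With TMM or median-of-ratios scaling 174 brain genes were higher and 23 lower. The 146 genes higher in both tissues were 90.1% of the brain's and 74.5% of the spleen's higher genes, whereas 4 lower genes were shared, 11.4% of the brain's and 9.30% of the spleen's. At a looser 1.5-fold in the other tissue, 16 of the 35 brain and 16 of the 43 spleen genes were lower there too. No gene passed 2-fold in opposite directions among the 6246 measured in both tissues. These genes were read from the same cells and UMIs as the rule genes, so the counts describe the class and do not test it.

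Among the 6246 genes measured in both tissues, the 146 that were higher in both had 117 promoters in the RefSeq table, and 51 of those (43.6%) held the element core in the window from 250 bases before to 50 after the start. It was found in 6 of 51 promoters (11.8%) of genes higher in 1 tissue only, and in 1 of 51 (1.96%) of genes lower in either tissue. Genes past 2-fold in neither tissue held it in 171 of 4824 promoters (3.54%), and all genes in the table in 1079 of 27025 (3.99%).

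**Figure D2:**
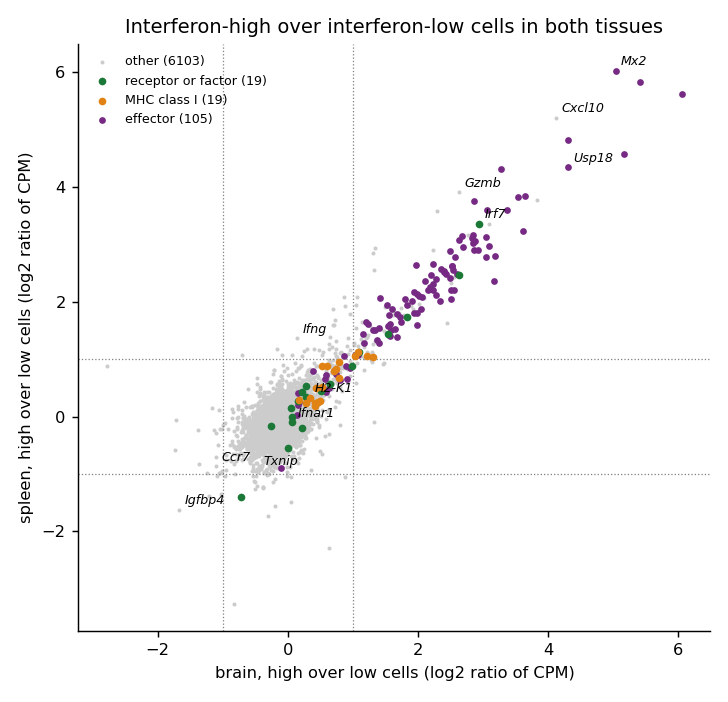
Log2 ratio of summed CPM, interferon-high over interferon-low cells, in brain (x axis) and spleen (y axis) for the 6246 genes measured in both, without the 8 rule genes; dotted lines mark 2-fold. Effector genes of interferon (purple) lie along the diagonal, with Mx2 and Ifi204 among the highest. Receptors and transcription factors (green) reach from below no change, as Ifngr2 does, toward the effectors. MHC class I genes (orange) have median log2 ratios of 0.53 in brain and 0.67 in spleen. Of these 19 genes 4 pass 2-fold in each tissue.

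Interferon ligands other than Ifng, the gene of interferon gamma, were almost absent from the cells themselves. Of 21 ligand genes, 19 had no UMI in brain and 20 had none in spleen interferon-high cells, where 3 UMIs would correspond to 0.886 CPM in brain and 1.75 CPM in spleen. Ifng was the one ligand measured, in spleen only through its level in interferon-high cells. In brain it was at 342 CPM in interferon-high and 308 CPM in interferon-low cells, a ratio of 1.11 (1.04 to 1.18), and in spleen at 50.8 CPM in interferon-high and 19.7 CPM in interferon-low cells, a ratio of 2.58 (2.05 to 3.21). The 3 richest cells held 37.9% of the Ifng UMIs of the spleen interferon-high class.

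The genes of interferon receptors and their kinases were at like levels in both classes. Ifnar1 and Ifnar2, the chains of the type I receptor, had ratios of 1.04 (0.922 to 1.18) and 1.11 (1.0005 to 1.23) in brain, and of 0.937 (0.773 to 1.12) and 1.21 (1.05 to 1.39) in spleen. Jak1 had a ratio of 0.840 in brain and 0.889 in spleen, and Tyk2 of 1.22 and 1.26. Of 8 measured receptor and kinase genes none passed 2-fold in brain, and 1 did in spleen: Ifngr2, the signalling chain of the interferon gamma receptor, was lower, at 13.4 CPM in interferon-high against 35.6 CPM in interferon-low cells, which is 0.377 of their level (0.238 to 0.568). Brain Ifngr2 was at 22.1 CPM in high against 36.5 CPM in low cells, a ratio of 0.606 (0.473 to 0.766).

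Among transcription factors, Stat2 and Irf9, whose proteins work in one complex, were higher in both tissues. Stat2 was 6.20-fold (5.56 to 6.92) and Irf9 2.91-fold (2.63 to 3.22) higher in brain, and 5.54-fold and 2.71-fold higher in spleen. Irf7, which amplifies interferon production, was higher too, with a ratio of 7.68 (7.19 to 8.20) in brain and 10.2 (9.54 to 10.98) in spleen. In all, 5 of 12 measured factors were higher and 0 lower in each tissue, the nuclear body protein gene Sp100 among them. In spleen 1 of the 12 was measured only through the interferon-high class. Irf1, a target shared with interferon gamma, was at 393 CPM in high against 251 CPM in low brain cells, a ratio of 1.57, and at 264 CPM in high against 179 CPM in low spleen cells, a ratio of 1.48.

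Sensors of viral nucleic acid were higher as well. Of 14 listed sensors 8 were measured in each tissue, and 5 of these were higher in both: the RNA helicases Rigi, Ifih1 and Dhx58, the Z-form nucleic acid sensor Zbp1 and the ubiquitin ligase Trim25, which activates RIG-I. Ifih1 was at 256 CPM in high against 37.4 CPM in low brain cells and 294 CPM in high against 32.9 CPM in low spleen cells, and Zbp1 at 475 CPM in high against 62.8 CPM in low brain cells and 521 CPM in high against 70.03 CPM in low spleen cells. The adaptor gene Sting1 had a ratio of 1.13 in brain and 1.34 in spleen, and the DNA sensor gene Aim2 of 1.003 and 1.12. In each tissue 1 of the 8 sensors was measured only through the interferon-high class.

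The effector families gave the largest ratios. Of 13 IFIT, OAS and MX genes outside the rule 10 were measured, and 9 were higher in each tissue, although 9 in brain and 7 in spleen were measured only through their level in interferon-high cells. Mx2, a GTPase like Mx1, was 32.9-fold (25.4 to 43.0) higher in brain, at 82.7 CPM in high against 2.51 CPM in low cells, and 65.1-fold (47.4 to 90.2) higher in spleen, at 74.1 CPM in high against 1.14 CPM in low cells. Oas1a and Oas3, which make a nucleotide messenger on binding double-stranded RNA, were 8.55-fold and 11.6-fold higher in brain and 7.86-fold and 14.2-fold in spleen.

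In the system that attaches ISG15 to other proteins, 4 of 5 listed genes were measured and all 4 were higher, although Ube2l6 and Usp18 were measured only through the interferon-high class. The activating enzyme Uba7 was 2.58-fold higher in brain and 2.51-fold in spleen, the conjugating enzyme Ube2l6 8.37-fold and 12.2-fold, and the ligase Herc6 6.45-fold and 7.70-fold. Usp18, which removes ISG15 and also blocks the type I receptor, was at 160 CPM in high against 8.08 CPM in low brain cells and at 288 CPM in high against 14.2 CPM in low spleen cells, 19.9-fold (17.0 to 23.2) and 20.3-fold (18.1 to 22.8) higher. Of 7 feedback genes Usp18 and Trim21 were the 2 past 2-fold. In brain Trim21 too was measured only through the interferon-high class. Socs1, an inhibitor of JAK kinases, was at 259 CPM in high against 167 CPM in low brain cells, a ratio of 1.55, and at 183 CPM in high against 94.9 CPM in low spleen cells, a ratio of 1.93.

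Large GTPases that attack membranes around intracellular microbes were higher throughout. All 17 measured of 20 GBP and IRG genes passed 2-fold in each tissue, of which 5 in brain and 4 in spleen were measured only through the interferon-high class. Gbp2 was at 257 CPM in high against 53.0 CPM in low brain cells and 251 CPM in high against 47.4 CPM in low spleen cells. Igtp was at 324 CPM in high against 80.1 CPM in low brain cells and 414 CPM in high against 96.3 CPM in low spleen cells. Close copies within this family, and within the OAS, IFI200, Schlafen and H2-Q families, may share reads, so single members are uncertain.

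The other effector lists were alike. All 12 measured of 16 IFI200 and PHF11 genes, which include DNA-binding proteins such as Mndal, were higher in each tissue, with ratios from 2.98 to 66.5 in brain and from 3.05 to 49.0 in spleen; 5 of them in brain and 3 in spleen, among them Ifi204 with the highest ratio, were measured only through the interferon-high class. All 9 PARP and DTX3L genes, which modify proteins with ADP-ribose or ubiquitin, were higher (2 in brain and 1 in spleen measured only through the interferon-high class), with ratios from 2.64 to 7.19 in brain and from 2.43 to 8.91 in spleen. Of the Schlafen genes, regulators of T cell quiescence and translation in mouse, 4 of 5 in brain and 5 of 6 in spleen were higher (1 in brain and 2 in spleen measured only through the interferon-high class), led by Slfn5 at 463 CPM in high against 37.8 CPM in low brain cells and 727 CPM in high against 77.5 CPM in low spleen cells. Of 48 TRIM and restriction factor genes 34 in brain and 35 in spleen were higher and none lower, with 7 in brain and 3 in spleen measured only through the interferon-high class. Bst2 (tetherin), which holds budding virus on the cell surface, was at 854 CPM in high against 118 CPM in low brain cells and 859 CPM in high against 105 CPM in low spleen cells.

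Not every gene with an interferon name was higher. Ifi27, a mitochondrial relative of Ifi27l2a, was at 150 CPM in brain interferon-high and 162 CPM in brain interferon-low cells, a ratio of 0.925 (0.842 to 1.01), and in spleen at 77.6 CPM in interferon-high and 144 CPM in interferon-low cells, a ratio of 0.539 (0.451 to 0.640). Ifi27l2a itself was at 2367 CPM in high against 513 CPM in low brain cells and at 3427 CPM in high against 623 CPM in low spleen cells. When genes had to reach 20 CPM in the interferon-low class instead, so that no gene was measured through the interferon-high class alone, 99 genes in brain and 131 in spleen were still higher.

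Antigen presentation by MHC class I showed small ratios at high levels. H2-K1, a classical class I heavy chain, was at 4562 CPM in high against 3621 CPM in low brain cells and 4679 CPM in high against 3728 CPM in low spleen cells, ratios of 1.26 (1.24 to 1.28) and 1.26 (1.23 to 1.28). B2m, the shared light chain, had ratios of 1.44 in brain and 1.43 in spleen. Of 19 genes 4 passed 2-fold in each tissue, the non-classical heavy chains H2-T22 and H2-T23, the peptide loading chaperone Tapbp and the immunoproteasome subunit Psmb10. The list's median log2 ratio was 0.53 in brain and 0.67 in spleen, where the median over all measured genes was -0.09 in brain and -0.06 in spleen. Of its 16 promoters matched, 5 (31.3%) held the element core.

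**Figure D3:**
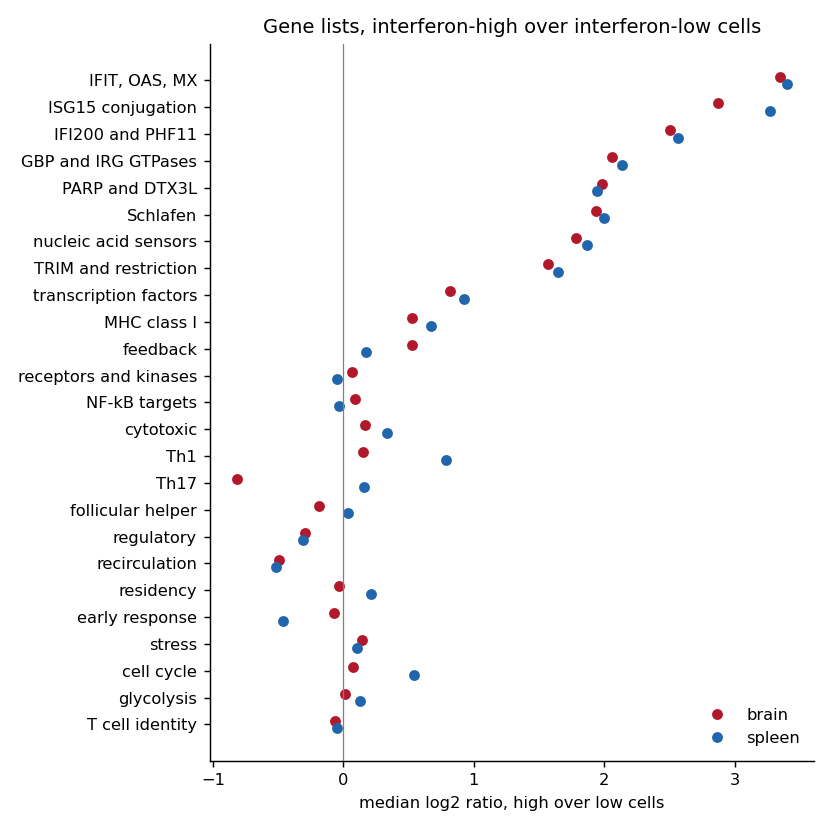
Median log2 ratio of summed CPM, interferon-high over interferon-low cells, of the measured members of each gene list, in brain (red) and spleen (blue). The effector lists lie between 1.57 and 3.40, MHC class I at 0.53 in brain and 0.67 in spleen, receptors and kinases at 0.06 in brain and -0.05 in spleen (0.10 in spleen with low cells weighted to equal depth), and Th17 genes at -0.81 in brain and 0.16 in spleen.

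Outside the rule the response was graded and did not switch on at 5 transcripts. Irf7 in brain cells with 0, 2, 4, 6 and 8 of the rule transcripts was at 56.1, 134, 279, 405 and 787 CPM. In spleen cells with the same numbers it was at 53.3, 147, 364, 587 and 805 CPM. H2-K1 differed less: brain cells with 0, 7 and 8 transcripts had 3533, 4738 and 4990 CPM, and spleen cells 3652, 4754 and 6746 CPM. Cxcl10, a chemokine that draws CXCR3-bearing cells, was the reverse: 36.0 CPM in brain and 8.49 CPM in spleen cells with 4 transcripts, and 865 CPM in brain and 1137 CPM in spleen cells with 8.

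The single cells gave the same picture for the 115 effector genes outside the rule as a sum. Their sum had a median of 30396 CPM per cell in brain interferon-high, 15748 CPM in the 662 cells between and 10189 CPM in interferon-low cells. In spleen it was 36214 CPM in interferon-high cells, 19885 CPM in those between and 12717 CPM in interferon-low cells. The level exceeded by 1 in 20 interferon-low cells was passed by 94.1% of brain and 96.5% of spleen interferon-high cells, and by 39.9% of brain and 44.3% of spleen cells between the classes.

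**Figure D4:**
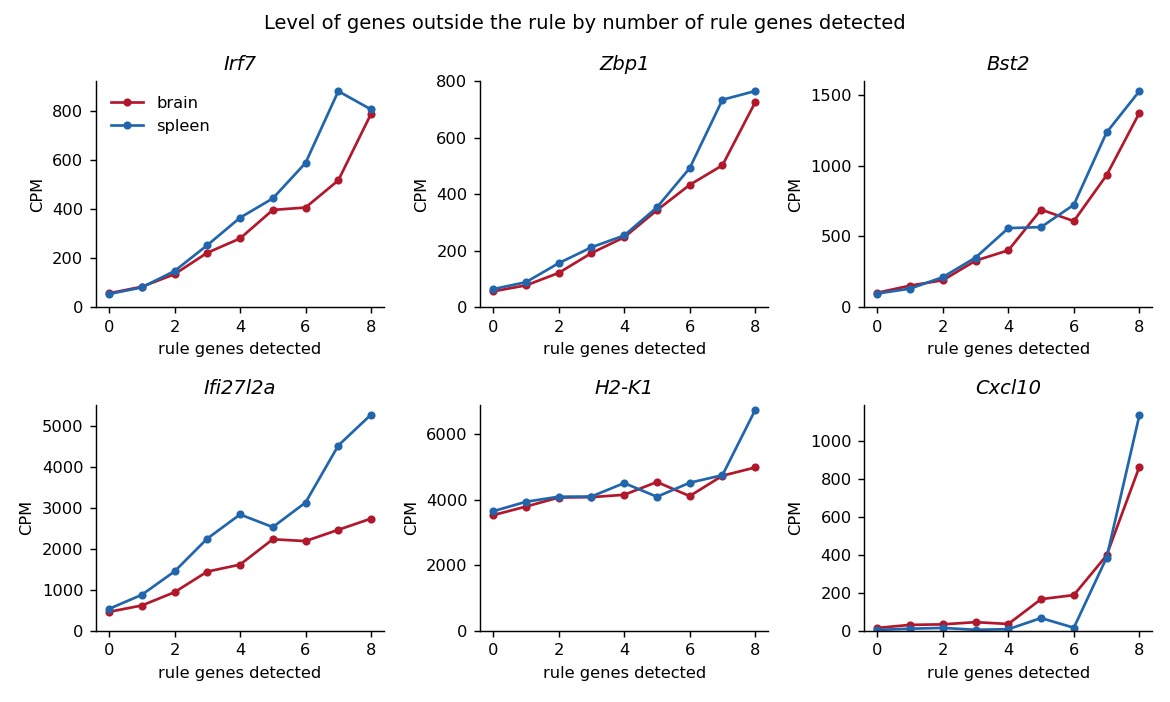
Level (CPM, linear axes from 0) of 6 genes outside the rule in cells grouped by the number of rule transcripts detected, brain in red and spleen in blue. Zbp1 is higher at each step in both tissues, Irf7, Bst2 and Ifi27l2a are higher at 8 than at 0 with a lower step between in at least 1 tissue, H2-K1 differs little up to 7 transcripts and stands at 6746 CPM in spleen at 8, and Cxcl10 is highest in cells with 7 or 8.

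Cxcl10 and Gzmb were high in a minority of the members. After thinning to 2000 UMIs, Cxcl10 was found in 21.1% of brain interferon-high (16.4% to 26.5%) against 2.35% of interferon-low cells (1.83% to 2.96%), and in 9.94% of high (5.90% to 15.4%) against 0.556% of low spleen cells (0.394% to 0.763%). Unthinned, the shares were 33.7% of high against 6.29% of low cells in brain and 17.0% of high against 1.14% of low cells in spleen. No cell type in these sorted libraries is sure to lack such transcripts, so the share that free RNA gives was not measured. The 3 richest cells held 22.8% of the Cxcl10 UMIs of the class in brain and 55.7% in spleen.

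Gzmb, the gene of the cytotoxic protease granzyme B, was at 120 CPM in high against 19.4 CPM in low brain cells, 6.18-fold (5.43 to 7.03) higher, and at 99.8 CPM in high against 6.64 CPM in low spleen cells, 15.03-fold (12.4 to 18.1) higher. It was detected in 32 of 270 brain and 13 of 171 spleen interferon-high cells. Unlike Cxcl10, Gzmb was not highest in cells with 8 rule transcripts. Brain cells with 5, 6, 7 and 8 had 65.3, 62.1, 318 and 22.9 CPM of Gzmb. Spleen cells with the same numbers had 44.8, 121, 171 and 80.5 CPM. Thinned, it was found in 7.41% of high (4.58% to 11.2%) against 1.60% of low brain cells (1.18% to 2.12%), and in 5.26% of high (2.43% to 9.76%) against 0.527% of low spleen cells (0.369% to 0.729%). Unthinned, the shares were 11.9% of high and 3.67% of low brain cells, and 7.60% of high and 1.24% of low spleen cells; the 3 richest cells held 44.6% and 69.0% of its UMIs. Weighting the spleen interferon-low cells to the depth of the interferon-high ones gave a ratio of 9.56. Its cytotoxic partner Prf1 (perforin) had ratios of 1.01 (0.680 to 1.46) in brain and 0.961 (0.677 to 1.33) in spleen. Of 11 cytotoxic genes 8 were measured in each tissue. Gzmb was higher in brain, and Gzmb and Gzmk were higher and the inhibitory receptor gene Klrc1 lower in spleen. Gzmb in both tissues and Gzmk in spleen were measured only through the interferon-high class.

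Helper states were mixed among the members, with fewer Th17 transcripts in brain. Of 12 Th17 genes 10 were measured in brain and 4 were lower, among them the cytokine Il17a, the chemokine receptor Ccr6 and the interleukin 1 receptor Il1r1; none was higher. Il17a was at 55.8 CPM in high against 279 CPM in low brain cells, 0.200 of the interferon-low level (0.172 to 0.231), and 0.481 when cells with 4 rule transcripts were also counted as high. Thinned, Il17a was found in 3.33% of brain interferon-high (1.54% to 6.23%) and 7.58% of interferon-low cells (6.65% to 8.60%), and unthinned in 5.56% of high and 9.70% of low cells. The 3 richest of the 15 positive interferon-high cells held 55.6% of its UMIs. In spleen Il17a had no UMI in the 171 interferon-high cells, which allows a share of cells with an Il17a UMI of up to 1.75% by a limit of 3 cells (2.13% by the exact interval), and was found in 0.141% of interferon-low cells.

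Th1 genes leaned the other way, more in spleen than in brain. Of 11 measured in spleen, Ifng and Ly6c2 passed 2-fold, with Ifng measured only through the interferon-high class. The list's median log2 ratio was 0.79 in spleen, against 0.15 over 12 genes in brain. Tbx21, the Th1 lineage factor, was found in 13.5% of thinned spleen interferon-high (8.72% to 19.5%) and 6.33% of interferon-low cells (5.76% to 6.93%). In brain it was found in 13.3% of high (9.52% to 17.98%) and 12.03% of low cells (10.9% to 13.3%). Unthinned, the Tbx21 shares were 26.9% in high and 14.01% in low cells of spleen, and 45.2% in high and 32.4% in low cells of brain. Ly6c2, a lymphocyte surface protein that interferon also induces, was at 284 CPM in high against 107 CPM in low brain cells and 173 CPM in high against 41.6 CPM in low spleen cells.

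Genes of lymph node homing and recirculation were lower in part. Ccr7, the receptor for entry into lymph nodes, was at 62.3 CPM in high against 134 CPM in low brain cells, 0.464 of the interferon-low level (0.402 to 0.533), and at 186 CPM in high against 340 CPM in low spleen cells, 0.548 (0.489 to 0.612). Igfbp4, a binding protein of insulin-like growth factor, was at 19.8 CPM in high against 63.2 CPM in low brain cells and 64.8 CPM in high against 199 CPM in low spleen cells, ratios of 0.313 and 0.326, and the brain ratio was 0.108 when 6 transcripts were required. Of 16 measured recirculation genes 3 in brain (Ccr7, Igfbp4 and Dapl1) and 1 in spleen (Igfbp4) passed 2-fold lower, and none higher. The median log2 ratio was -0.50 in brain and -0.52 in spleen.

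**Figure D5:**
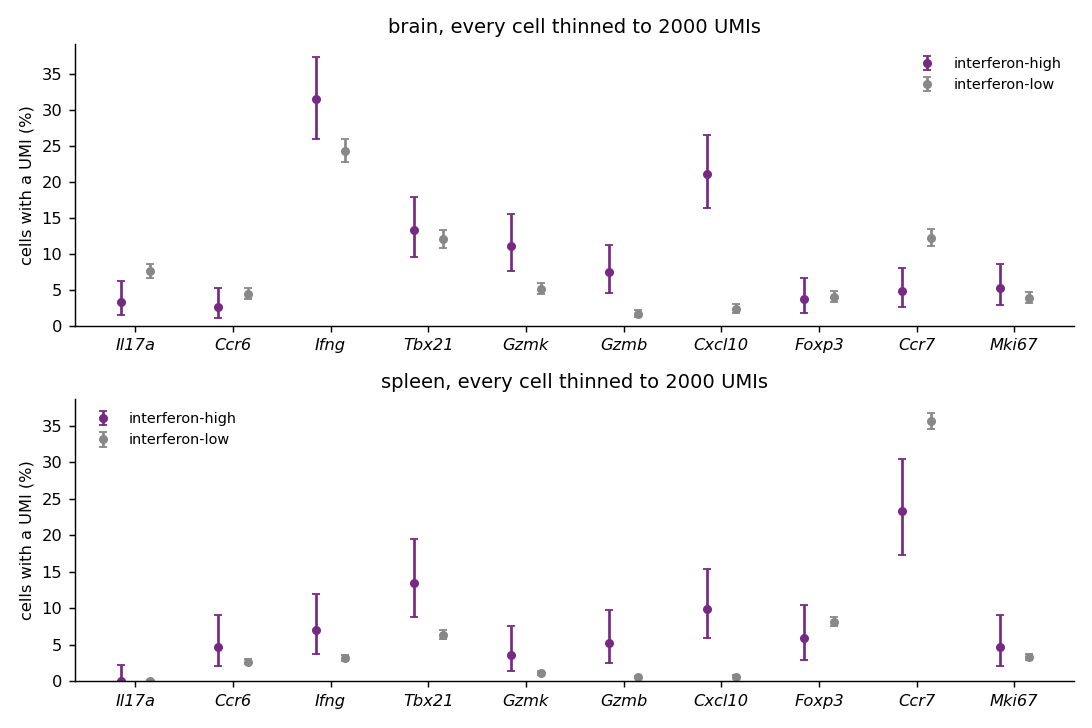
Share of cells (%) with at least 1 UMI of 10 genes of helper state, chemokine, homing and division in interferon-high (purple) and interferon-low (grey) cells of brain (top) and spleen (bottom), every cell thinned to 2000 UMIs, with exact 95% binomial intervals. The Cxcl10 and Gzmb intervals of interferon-high cells lie above those of interferon-low cells in both tissues, and the brain Il17a interval lies below.

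Lists of other states showed no member past 2-fold in either tissue: follicular helper, with 6 measured genes in brain and 9 in spleen, regulatory (7 and 7), stress (16 and 14), residency (18 and 12), cell cycle (8 and 11), NF-κB targets (12 and 12) and glycolysis (11 and 11). The cell cycle median log2 ratio in spleen was 0.54, and -0.66 when interferon-low cells were weighted to equal depth. Foxp3, the regulatory lineage factor, was found in 3.70% of thinned brain interferon-high (1.79% to 6.71%) and 4.01% of interferon-low cells, and in 5.85% of spleen interferon-high (2.84% to 10.5%) and 8.13% of interferon-low cells; unthinned, the shares were 5.93% in high and 6.68% in low brain cells and 10.5% in high and 11.8% in low spleen cells. Cd274, which codes for the checkpoint ligand PD-L1, was the inhibitory list's only gene past 2-fold, 2.29-fold higher in brain and 2.58-fold in spleen.

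Other genes were among the lowest ratios of one tissue. Ccl1, a chemokine, was at 1.77 CPM in high against 116 CPM in low brain cells, but 3 cells held 73.6% of its UMIs in the interferon-low class. Aff3, a transcription elongation factor relative, was at 64.7 CPM in high against 142 CPM in low brain cells and Rflnb, a filamin binder, at 27.5 CPM in high against 70.9 CPM in low brain cells; in spleen their ratios were 0.851 (0.776 to 0.931) and 0.566 (0.487 to 0.654). Txnip, a brake on glucose uptake, was at 403 CPM in high against 771 CPM in low spleen cells, a ratio of 0.522 (0.484 to 0.563), and Tnfrsf4, which codes for the costimulatory receptor OX40, at 58.3 CPM in high against 121 CPM in low spleen cells, 0.481 (0.391 to 0.586). In brain the Txnip ratio was 0.729 (0.686 to 0.775) and the Tnfrsf4 ratio 1.04 (0.945 to 1.14).

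Markers of other cells were counted in the class. Of 4 myeloid markers 3 were present in brain interferon-high cells, with 8 UMIs in all (2.36 CPM, against 11.2 CPM in interferon-low cells), and 1 in spleen with 1 UMI (0.583 CPM, against 1.58 CPM in interferon-low cells); no interferon-high cell held 2 of them. Both plasmacytoid dendritic markers that interferon does not induce summed to 10.6 CPM in high against 15.8 CPM in low brain cells and 5.83 CPM in high against 10.2 CPM in low spleen cells, and no interferon-high cell held both. Of the microglia markers, Tmem119 had no UMI in the interferon-high cells of either tissue, and P2ry12 had 2.66 CPM in high against 3.99 CPM in low brain cells and 1.17 CPM in high against 0.116 CPM in low spleen cells. Their part in the results was not tested. CD8 genes stood apart: Cd8a and Cd8b1 together were found in 10 of the 270 brain interferon-high cells (3.70%) and 15 of 3022 interferon-low cells (0.496%), at a summed 83.3 CPM in high against 20.6 CPM in low brain cells. In spleen they were found together in 1 of 171 interferon-high (0.585%) and 14 of 7086 interferon-low cells (0.198%). Cells were also left out if they held a CD8 UMI or at least 2 of Lyz2, Csf1r, C1qa, C1qb, Tyrobp and Fcer1g. This is another set than the 4 myeloid markers above. It removed 23 of the brain and 11 of the spleen interferon-high cells. Without them 164 brain and 206 spleen genes were higher, and the Gzmb ratio in brain was 4.30.

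Brain and spleen also differed within the interferon-high class. Of 6750 measured genes 368 (5.45%) were at least 2-fold higher in brain and 214 (3.17%) lower. In interferon-low cells 356 of 6864 (5.19%) were higher and 132 (1.92%) lower, and 269 genes were higher in both classes, 73.1% of the interferon-high and 75.6% of the interferon-low ones. Of the lower genes 91 were shared, 42.5% of the interferon-high and 68.9% of the interferon-low ones. Scaling with TMM factors moved the median log2 ratio of the interferon-high comparison to 0.02, where it was -0.10, and gave 448 higher and 154 lower.

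The genes higher in brain interferon-high cells included early response and residency genes, as they did in interferon-low cells. Fos, an early response transcription factor, was at 1640 CPM in brain against 70.01 CPM in spleen, and Atf3, a stress-induced one, at 131 CPM in brain against 0.583 CPM in spleen, where the spleen value is a single UMI. Of 18 measured residency genes 14 were higher and none lower, such as the retention receptor Cd69 at 1097 CPM in brain against 252 CPM in spleen and the integrin chain Itga1 at 79.4 CPM in brain against 11.1 CPM in spleen; 7 of the 18 were measured only through brain. Of 16 recirculation genes 8 were lower and none higher. Il17a was at least 31.9-fold higher, since spleen interferon-high cells held no UMI and a floor of 3 UMIs over the class was used.

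The interferon effector lists were somewhat lower in brain than in spleen interferon-high cells, by less than 2-fold at the median. Their median log2 ratios, brain over spleen, lay from -0.20 for GBP and IRG genes to -0.61 for Schlafen genes. The median over all measured genes was -0.10. No member was 2-fold higher in brain, and 1 each of the IFIT, OAS and MX list and the IFI200 list was 2-fold lower. The stress list had 9 of 16 genes higher, and the early response list 8 of 9. In interferon-low cells 9 of 16 stress and 6 of 9 early response genes were higher in brain.

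The size of the interferon ratio itself was compared between tissues as the brain ratio divided by the spleen ratio. Over 7036 genes this had a median of 0.971, with 18 genes (0.256%) at least 2-fold higher in brain and 50 (0.711%) lower. Over 106 effector genes the median was 0.948, with none 2-fold higher in brain and 1 lower, Ifi211 at 0.488 (0.318 to 0.748). Ifitm3, given below, is not among these 106 genes. Ifit2, a sensor of viral RNA, stood on the brain side at 1.74 (1.47 to 2.07). Ifitm3, which blocks virus entry through membranes, stood on the spleen side at 0.411 (0.345 to 0.490), with 240 CPM in high against 49.0 CPM in low brain cells and 134 CPM in high against 11.3 CPM in low spleen cells; 53.5% of its UMIs in spleen interferon-high cells came from 3 cells. Gzmb was at 0.411 (0.329 to 0.514), Plac8, a small cysteine-rich protein of leukocytes, at 0.345 (0.294 to 0.406) and Ifng at 0.430 (0.342 to 0.539). For Plac8, 3 cells held 48.6% of the UMIs of the spleen interferon-high class. Cd8b1 was at 4.10 (2.55 to 6.61), beside the 10 brain interferon-high cells with both CD8 genes counted above. In brain interferon-high cells 3 cells held 42.2% of its UMIs.

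T cell receptors, which the rule used only to leave out doublets, showed that the class is spread over many clones. In brain 223 interferon-high cells with a paired receptor fell into 205 clonotypes, and no clonotype held more than 4 of them. In spleen 158 cells fell into 153 clonotypes, with at most 2 in any. Cells in clones of at least 2 cells were 33.6% (27.5% to 40.2%) of the brain interferon-high and 41.0% (39.0% to 43.0%) of the brain interferon-low cells. In spleen they were 11.4% (6.89% to 17.4%) of high and 11.2% of low cells (10.4% to 11.98%). Clones of at least 10 cells held 6.73% (3.81% to 10.9%) of the brain interferon-high and 14.1% (12.8% to 15.6%) of the interferon-low cells.

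Clonotypes found in both tissues held 11.7% (7.76% to 16.6%) of brain interferon-high and 19.2% (17.6% to 20.8%) of brain interferon-low cells. In spleen they held 8.23% of high (4.45% to 13.7%) and 6.16% of low cells (5.56% to 6.80%). Of 188 clonotypes present in both tissues, 1 had interferon-high cells in both. A paired receptor was read in 82.6% of brain interferon-high and 79.0% of interferon-low cells, and in 92.4% of spleen high and 83.4% of spleen low cells.

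Most clone-mates of interferon-high cells were not interferon-high, but a larger share of them was than of the mates of interferon-low cells. Of the clone-mates of brain interferon-high cells 8.86% were interferon-high themselves, and of the mates of interferon-low cells 2.68%, where 7.12% of all paired brain cells were. In spleen the shares were 6.85% of the mates of high and 2.59% of the mates of low cells, where 2.36% of all paired cells were. Large clones weigh heavily in the shares of mates: the largest brain clone, of 67 cells, had 2 interferon-high cells, and of 18 brain clones with at least 10 cells 7 had any. The largest spleen clone, of 60 cells, had 2 interferon-high cells. Some small spleen clones had 2 among 3 cells or 2 among 2. The brain clone with most interferon-high cells had 4 among its 8 and used TRBV3 with TRBJ1-1 and TRAV16 with TRAJ37. Brain clones of 28 and 23 cells, with 3 and 2 interferon-high cells, shared TRBV26 and one identical alpha CDR3. Their CDR3 sequences are shown because they identify the clones, with no part set in capitals.
TRBV3 clone, beta CDR3: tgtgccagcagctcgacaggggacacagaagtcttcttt
TRBV3 clone, alpha CDR3: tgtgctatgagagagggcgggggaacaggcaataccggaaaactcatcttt
TRBV26 clones, shared alpha CDR3: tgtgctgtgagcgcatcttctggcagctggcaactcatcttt

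Invariant natural killer T cells, which carry TRAV11 joined to TRAJ18 and respond to lipids, were 4.81% (2.59% to 8.09%) of brain interferon-high and 2.78% (2.22% to 3.43%) of interferon-low cells. In spleen they were 14.04% (9.20% to 20.2%) of interferon-high and 7.58% (6.97% to 8.22%) of interferon-low cells, and 13.8% of the cells between the classes. These are shares of all cells of a class, also those without a receptor read. A paired receptor was read in 92.4% of spleen interferon-high but 83.4% of interferon-low cells, and the part of this in the difference was not tested. Without them 162 genes were higher and 38 lower in brain, and 200 higher and 45 lower in spleen.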

How the data were processed

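Single-cell RNA and T cell receptor libraries, 1 of each per tissue, were used. The authors deposited raw UMI counts per gene and barcode, made with Cell Ranger 9.0.0 per the file headers, and a table of filtered receptor contigs with read and UMI counts. The submitters' processing notes list genome builds without a role, so the build of the counts is not taken from them. Barcodes with at least 500 genes, 1000 UMIs and at most 10% mitochondrial UMIs were kept; doublets were limited by receptors (at most 1 productive TRB and 2 TRA) and by 0 Cd79a UMIs, and no doublet caller was run. The totals were 44386447 UMIs over 4277 brain and 65191435 over 8707 spleen barcodes. The paired clonotype was the V segment and CDR3 of both chains.

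Counts were summed over the cells of a class and given as CPM. Ratios carry exact conditional binomial 95% intervals, shares exact Clopper-Pearson ones, and the limit for a count of 0 is 3 counts; all cover counting error only, and no test between samples could be made. The call rule was run on simulated class sums with set changes and counting error only. These sums hold no spread between cells and no choice of cells by their transcripts. The run therefore cannot show how either affects the calls. Named genes were, besides rule and list genes, the 12 highest and 8 lowest ratios per tissue at 50 CPM or more, ranked by the interval bound nearest 1, the 10 highest and 10 lowest between tissues, and the 8 highest and 8 lowest ratios of ratios; not all are printed, and some listed genes are not reported here. The members and the gene lists were chosen with earlier results of these data known. Alternatives comprised other scalings (TMM of edgeR 4.0.16, median-of-ratios), filters, folds, class limits, thinning and weighting of interferon-low cells by UMI decile. Python 3.11.15, scipy 1.17.1 and R 4.3.3 were used.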

Additional observations from a re-analysis of the deposited data

Results flagged for a closer look

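Of the 16 genes with the most extreme brain ratio divided by spleen ratio, 5 are given here, for which the interferon-high class lay above the interferon-low class in one tissue and below it in the other, with both counting intervals clear of 1; with 1 library per tissue the difference was not tested beyond its counting interval. Other named genes met the same condition with less extreme values, such as Cxcr6, a chemokine receptor, at 289 CPM in high against 347 CPM in low brain cells and 251 CPM in high against 166 CPM in low spleen cells. Nrgn, a calmodulin-binding protein, was at 29.2 CPM in high against 85.0 CPM in low brain cells and 18.1 CPM in high against 4.98 CPM in low spleen cells, and its brain ratio divided by its spleen ratio was 0.0947 (0.0620 to 0.145). Of its UMIs in interferon-high cells, 3 cells held 72.7% in brain and 93.5% in spleen. Ckb, the brain-type creatine kinase, was at 64.1 CPM in high against 104 CPM in low brain cells and 95.1 CPM in high against 45.1 CPM in low spleen cells (0.292, 0.237 to 0.360).

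Cd74, the invariant chain of MHC class II, was at 29.8 CPM in high against 20.7 CPM in low brain cells and 32.1 CPM in high against 50.4 CPM in low spleen cells (2.27, 1.62 to 3.19), and 3 cells held 55.4% of its UMIs in spleen interferon-low cells. Mir142hg, the host transcript of a leukocyte microRNA, was at 524 CPM in high against 439 CPM in low brain cells and 224 CPM in high against 329 CPM in low spleen cells (1.76, 1.57 to 1.97). Neurl3, a ubiquitin ligase, was at 141 CPM in high against 120 CPM in low brain cells and 54.8 CPM in high against 85.0 CPM in low spleen cells (1.82, 1.46 to 2.28).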

How the results depend on the processing

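The counts of 197 genes past 2-fold in brain and 239 in spleen, and of 582 between tissues in interferon-high cells, stayed within 1.5 times under both other scalings, interval limits, 4 or 6 rule transcripts, paired cells only and the other class settings tried. The lower genes alone moved more: in brain the 35 were 23 under TMM and median-of-ratios scaling, 18 with 4 rule transcripts and 110 from the mean of per-cell CPM, and in spleen the 43 were 23 with 4 rule transcripts, 95 with 6 and 95 from the mean of per-cell CPM. The totals moved with the filter and the fold: with no filter on low levels they were 3601, 5291 and 2402; with at least 50 CPM the spleen count was 157 and that between tissues 330; and at 1.5-fold they were 468, 639 and 1546. The count of 20 list medians of at least 1 over both tissues was the same under TMM and depth weighting. The share of interferon-high cells was 9.48% in brain and 3.40% in spleen with 4 transcripts, and 4.65% and 1.42% with 6. Thinned to 2000 UMIs it was 1.76% and 0.545%, and to 5000 UMIs 4.20% and 1.57%. Clones of at least 5 cells held 17.9% of brain and 1.90% of spleen interferon-high cells. Of 458 alternative values of 27 single-gene ratios, 364 lay inside the counting interval, 94 outside and 0 on the other side of 1 for a gene past 2-fold. No paired analysis was possible because each tissue has 1 RNA library. Several alternatives (without cells with other markers, without TRAV11-TRAJ18 cells, 20 CPM in the interferon-low class) were chosen after seeing the data. Animal-to-animal spread cannot be read from 1 library per tissue, and with 171 spleen members a gene at 20 CPM rests on few UMIs.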
